A study of Homo sapiens with 6 samples.

Results

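FOXA1, FOXA2, GATA2, GATA3, GRHL2, SOX9, SOX2, TP63 and MYC, here called the prostate lineage transcription factors, were followed through 6 prostate cancer cell lines. Their rows were found by gene name, and the factors were chosen with earlier results of these data known. They are 9 of the 51698 genes listed in each deposited table, with 1 row per name. Of the 9, the 5 genes FOXA1, GATA2, GRHL2, SOX9 and MYC averaged 1 scaled FPKM or more across the libraries and could enter the tests across genes. FOXA2, GATA3, SOX2 and TP63 were below that mean and are described by their values. FPKM is the count of a gene corrected for the length of its gene model and for the total count of the library, and scaled FPKM is the deposited FPKM divided by a median-ratio factor per library.

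Total RNA was sequenced from LnCaP, VCaP and LAPC4, labelled castration sensitive, and from LnCaP-abl, VCaP-CR and LAPC4-CR, labelled castration resistant, with 1 library per line. All are established human lines, and each resistant line carries the name of the sensitive line it is paired with. The resistant lines were kept in RPMI with 10% charcoal-stripped serum, which is low in steroids, and B27. RPMI was also the base medium of LnCaP and LAPC4, while VCaP grew in DMEM; these 3 had 10% ordinary serum, and no line was treated further. State, medium and separate culture of the lines cannot be told apart in any pair, and whether a resistant line is a clone or a mixed population is not given in the sources used here. No label says how many cultures stand behind a library, so p-values measure the spread between these libraries, and in bulk RNA fewer expressing cells and less RNA per cell cannot be told apart. Where a pair of values is given for the LnCaP, VCaP or LAPC4 lines, the sensitive line stands first and the resistant line second.

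Lineage factors decide which enhancers a cell keeps open. FOXA1 is a pioneer factor, a protein that binds compacted chromatin and makes room for others, and in luminal prostate cells it prepares many enhancers. GATA2 acts beside it at such enhancers, and GRHL2 maintains epithelial junction genes. FOXA2 is a paralog of FOXA1 that is known from neuroendocrine prostate tumours, GATA3 is known from normal luminal and urothelial cells, TP63 marks basal cells, SOX9 and SOX2 are progenitor factors, and MYC is a growth regulator that is often amplified in prostate cancer.

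Total counts ran from 8661337 to 22433655 per library, and the resistant library was the deeper in 3 of 3 pairs. Protein-coding genes took from 62.8% to 79.5% of the counts, again more in the resistant library of each pair, and small RNA classes took from 12.98% to 26.98%. Some luminal and basal markers were read, which does not check the castration labels. The luminal keratins KRT8 and KRT18 were between 13.4 and 93.3 scaled FPKM in the 6 libraries, and the basal keratin KRT5 was between 0.33 and 0.43. Luminal KRT19 was at 1.60 and 1.52 for the LnCaP lines and between 8.55 and 136 in the other lines. Basal NGFR was at 23.4 in LAPC4 and 4.21 in LAPC4-CR, and at most 0.364 in the other lines. Basal KRT15 was at 2.37 in LAPC4-CR and at most 0.822 in the other lines. KLK3, the gene of prostate-specific antigen, was at 610 and 0.649 scaled FPKM for the LnCaP lines, 327 and 19.2 for the VCaP lines and 108 and 2.02 for the LAPC4 lines, so this defining luminal marker was near background in LnCaP-abl. As a background level, 6 immune and endothelial genes that epithelial lines should lack (PTPRC, CD3E, CD14, CD68, VWF and CDH5) had medians between 0.249 and 0.676 scaled FPKM per library and single values between 0.132 and 1.99; 0 of the 6 were at 0 in any library.

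Most of the 9 factors were either abundant or scarce in each of the 6 lines, SOX9 being between. Per gene length, FOXA1, MYC, GRHL2 and GATA2 lay between the 80.2 and 99.0 percentile of protein-coding genes in each library. FOXA2, GATA3 and TP63 lay between the 12.9 and 43.8 percentile, at levels inside the range of the immune and endothelial genes. SOX9 was inside that range in some lines and above it in others. SOX2 reached 1.65 in LAPC4-CR, where those genes reached at most 0.843. Their highest single value in any library was 1.99, in LnCaP-abl.

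**Figure D1:**
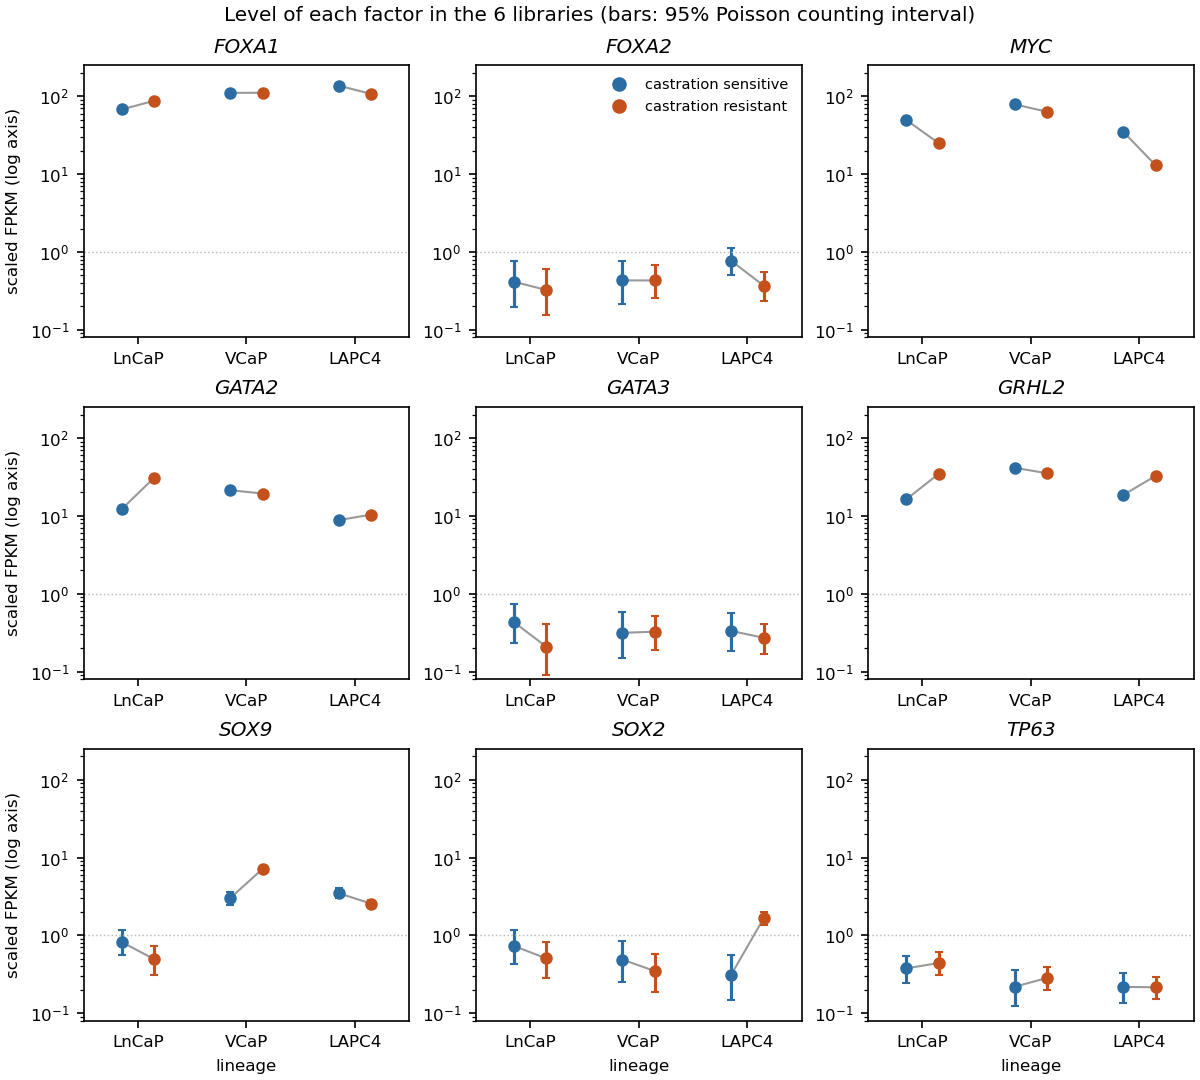
Scaled FPKM of each of the 9 factors (log axis) in the sensitive and resistant library of each lineage, with 95% Poisson counting intervals; the dotted line marks 1 scaled FPKM. FOXA1 stays between 67.7 and 137 in the 6 libraries, MYC is lower in the resistant library of each lineage, and FOXA2, GATA3 and TP63 stay below 1.

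FOXA1 (ENSG00000129514, chromosome 14, 37128940 to 37138996 in hg18, the build named in the submitters' processing notes) was the most abundant of the 9 in each library. Its level was 67.7 and 87.5 scaled FPKM for the LnCaP lines, 110 and 111 for the VCaP lines, and 137 and 107 for the LAPC4 lines. The highest library was thus 2.02 times the lowest, the smallest span of the 9 genes. The Poisson intervals of VCaP overlapped those of VCaP-CR and of LAPC4-CR, and the remaining neighbours in the order of levels were apart by more than counting error.

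Within pairs FOXA1 moved in different directions. The ratio of LnCaP-abl to LnCaP was 1.29 (95% counting interval 1.23 to 1.36), that of VCaP-CR to VCaP was 1.00 (0.966 to 1.04), and that of LAPC4-CR to LAPC4 was 0.784 (0.761 to 0.808). These intervals cover counting error only, since a pair has no replicate. Over the 3 pairs the edgeR log2 change was 0.02 (SE 0.25, adjusted p = 0.99). An overlapping gene, TTC6, shares 4194 bases of locus with FOXA1 and had from 403 to 887 counts against 2576 to 10946 for FOXA1, and how reads in the shared part were assigned is not given.

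FOXA2 (ENSG00000125798, chromosome 20, 22509643 to 22514093) had 10 and 10 counts for the LnCaP lines, 11 and 18 for the VCaP lines, and 26 and 24 for the LAPC4 lines. Its level lay between 0.325 and 0.774 scaled FPKM, and all 5 neighbours in the order of levels had overlapping intervals. Per gene length, FOXA1 exceeded FOXA2 from 163 times in LnCaP to 289 times in LAPC4-CR. The LAPC4-CR to LAPC4 ratio of FOXA2 was 0.479 (0.263 to 0.868), and the intervals of the other pairs held 1. FOXA3, the third member of that group and best known from liver, was at most 0.857 scaled FPKM, and FOXA1 made up from 98.8% to 99.5% of the summed FOXA level.

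Of 20 further forkhead genes listed as FOX paralogs, 19 were found and 6 were tested. FOXO3, a stress-response factor held in the cytoplasm by growth signals, was at 8.49 scaled FPKM in LnCaP and 24.3 in LnCaP-abl (log2 change 1.41). FOXO1, its close relative, went the other way in that pair, from 1.56 to 0.277, FOXQ1 was at 0.397 in VCaP and 1.80 in VCaP-CR, and FOXP1 at 6.15 in LAPC4 and 3.09 in LAPC4-CR. The median log2 change of the 6 was -0.05, 0.07 and 0.06 for the LnCaP, VCaP and LAPC4 pairs, beside -0.01, -0.01 and -0.02 over the 16231 genes tested.

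GATA2 had the highest level of GATA1 to GATA6 in each library, and the sequence before 1 of its starts is shown because it had the largest ratio of the 9 factors between LnCaP-abl and LnCaP. TP63 and SOX2 are shown beside it as a gene inside the range of the immune and endothelial genes in all 6 libraries and a gene whose LAPC4-CR value stood apart from the others. Each run is the 250 bases before a gene start in RefSeq (GRCh38.p14), on the gene's strand and in lower case, with capitals marking matches to the motifs named below. The end of the SOX2 run overlaps an exon of SOX2 in GENCODE.
GATA2, chr3:128493202-128493451, minus strand: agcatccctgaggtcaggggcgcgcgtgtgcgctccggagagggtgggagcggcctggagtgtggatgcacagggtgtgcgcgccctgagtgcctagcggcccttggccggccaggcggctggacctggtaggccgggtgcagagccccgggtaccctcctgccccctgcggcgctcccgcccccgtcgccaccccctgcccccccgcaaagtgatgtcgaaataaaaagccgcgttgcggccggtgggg
SOX2, chr3:181711675-181711924, plus strand: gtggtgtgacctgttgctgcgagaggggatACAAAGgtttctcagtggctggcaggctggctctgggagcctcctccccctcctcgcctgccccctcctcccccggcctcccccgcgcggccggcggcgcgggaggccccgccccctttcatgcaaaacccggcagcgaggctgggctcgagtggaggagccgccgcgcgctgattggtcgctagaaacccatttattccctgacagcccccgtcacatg
TP63, chr3:189631139-189631388, plus strand: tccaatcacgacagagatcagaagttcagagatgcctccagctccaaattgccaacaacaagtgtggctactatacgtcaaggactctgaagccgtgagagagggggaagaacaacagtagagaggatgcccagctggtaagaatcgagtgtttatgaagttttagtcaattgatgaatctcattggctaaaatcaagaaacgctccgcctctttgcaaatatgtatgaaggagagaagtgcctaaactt
The GATA2 window was 72.8% G and C with 24 CG dinucleotides, the SOX2 window 68.8% with 20, and the TP63 window 44.0% with 6, against a median of 58.0% G and C over 35116 windows. Motifs were searched on both strands. The forkhead motif TGTTTAC was held by 2.98% of all windows and its variant TGTTTGC by 3.23%. The GATA motif AGATAA was held by 9.17% and the form TGATAA by 6.66%. The E-box of MYC, CACGTG, was held by 6.34%, and the SOX motif ACAAAG by 13.7%. In the windows shown, 1 match was found, ACAAAG in SOX2 at 220 bases before the start; a match is a run of letters and not a binding site. The windows not shown held 4 matches for FOXA1 (1 of the variant forkhead motif and 3 of the SOX motif) and 3 for GATA3 (the variant forkhead motif, the E-box and the SOX motif, each in another window). Promoter windows were searched for 5 of the 9 genes, FOXA1, GATA2, GATA3, SOX2 and TP63. Those of FOXA2, GRHL2, SOX9 and MYC were not examined here.

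GATA2 (ENSG00000179348, chromosome 3, 129680960 to 129694718 in hg18) was at 12.2 and 30.9 scaled FPKM for the LnCaP lines, 21.3 and 19.3 for the VCaP lines, and 8.81 and 10.4 for the LAPC4 lines. LnCaP-abl was the highest library and both LAPC4 libraries the lowest, and VCaP and VCaP-CR alone were neighbours with overlapping intervals. The LnCaP-abl to LnCaP ratio was 2.53 (2.29 to 2.81), resting on 1628 and 503 counts. The VCaP ratio was 0.906 (0.833 to 0.985) and the LAPC4 ratio 1.18 (1.06 to 1.31). Over the pairs the edgeR log2 change was 0.48 (SE 0.34, adjusted p = 0.75), and without the LnCaP pair it was 0.06.

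A long noncoding RNA listed as RP11-475N22.4 overlaps GATA2 over 3974 bases. Its counts were 188 and 525 for the LnCaP lines, 121 and 221 for the VCaP lines, and 187 and 446 for the LAPC4 lines, so it was also highest in LnCaP-abl. Without knowledge of strand in the counting, reads from the shared stretch cannot be told apart.

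GATA3 (ENSG00000107485, chromosome 10, 8135573 to 8157167) had from 8 to 22 counts per library. Its level was between 0.208 and 0.431 scaled FPKM, all 5 neighbours in the order overlapped, and the interval of the ratio held 1 in each pair. GATA2 exceeded GATA3 per length from 26.4 times in LAPC4 to 149 times in LnCaP-abl. Over the 6 GATA genes GATA1 to GATA6, GATA2 made up 82.7% and 94.5% of the summed level for the LnCaP lines, 87.2% and 87.0% for the VCaP lines, and 77.2% and 74.5% for the LAPC4 lines. The next was GATA6, a factor of endoderm, with 2.59 scaled FPKM in LAPC4-CR as its highest value. TRPS1, a repressor that binds GATA sites, was at 3.24 and 6.91 for the LnCaP lines, 14.6 and 8.69 for the LAPC4 lines, and 0.285 and 0.376 for the VCaP lines, and it differed between lineages (edgeR adjusted p = 0.0075). GATA5 was at 0.867 in VCaP and 0.264 in VCaP-CR, and the cofactor ZFPM2 at 0.547 in LnCaP and 0.908 in LnCaP-abl. Of the 7 GATA paralogs and cofactors listed, 3 entered the test over pairs and 0 passed; their median log2 change was 0.27, 0.04 and -0.12 for the LnCaP, VCaP and LAPC4 pairs.

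GRHL2 (ENSG00000083307, chromosome 8, 102573836 to 102751130) was at 16.2 and 34.6 scaled FPKM for the LnCaP lines. It was at 41.4 and 35.2 for the VCaP lines and at 18.5 and 32.7 for the LAPC4 lines. LnCaP and LAPC4 were thus the low libraries, and the other 4 lay between 32.7 and 41.4. The ratio was 2.13 (1.98 to 2.31) for the LnCaP pair, 0.849 (0.806 to 0.894) for VCaP and 1.77 (1.67 to 1.87) for LAPC4. The edgeR log2 change over the pairs was 0.57 (SE 0.32, adjusted p = 0.69).

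At the start of GRHL2 a transcript listed as KB-1562D12.1 shares 68 bases with it. It had 3 and 78 counts for the LnCaP lines, 2 and 1 for the VCaP lines, and 0 and 5 for the LAPC4 lines. GRHL1, its closest paralog listed, was at 1.36 and 3.73 scaled FPKM for the LnCaP lines (log2 change 1.00), 1.17 for both VCaP lines, and 4.08 and 5.84 for the LAPC4 lines. UBP1, a more distant relative, was at 8.68 in LnCaP and 19.2 in LnCaP-abl, TFCP2L1 at 1.70 in VCaP and 0.765 in VCaP-CR, and TP73 at 0.251 in LAPC4 and 0.883 in LAPC4-CR. Of the 7 GRHL and p53 relatives listed, 5 entered the test over pairs and 0 passed; their median log2 changes were 0.15, 0.03 and 0.13.

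The 15 listed epithelial targets of GRHL2, genes of junctions and of the epithelial splicing program, were all tested. Their median log2 change was -0.13, 0.12 and -0.02 for the LnCaP, VCaP and LAPC4 pairs, beside 1.05, -0.23 and 0.79 for GRHL2 itself. CLDN3, a tight junction claudin, was at 14.9 scaled FPKM in LnCaP and 0.731 in LnCaP-abl, and OVOL1, an epithelial repressor, was at 0.533 and 4.15 in the same pair. RAB25, a trafficking GTPase of epithelia, was at 4.36 in VCaP and 23.4 in VCaP-CR, and MUC1, a membrane mucin, at 0.198 in LAPC4 and 25.3 in LAPC4-CR. MUC1 was at most 0.523 in the other lines and reached the mean needed for testing through LAPC4-CR alone. Counts and medians over the 15 are therefore a description only. CDH1, the epithelial cadherin, named after its values were seen, was higher in 3 of 3 pairs, as were 15.1% of all tested genes (log2 changes 1.04, 0.78 and 0.76, edgeR adjusted p = 0.59). In the edgeR test 0 of the 15 passed over the pairs, while 6 of 15 differed between lineages, against 12.7% of all tested genes.

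SOX9 (ENSG00000125398, chromosome 17, 67628756 to 67634156) separated the LnCaP lines from the others. It was at 0.823 and 0.494 scaled FPKM for the LnCaP lines, on 30 and 23 counts, which is inside the range of the immune and endothelial genes. It was at 3.01 and 7.19 for the VCaP lines, and at 3.48 and 2.55 for the LAPC4 lines. VCaP-CR stood above the other 5 libraries. The span from the lowest to the highest library was 14.6 times, the widest of the 9 genes.

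Within pairs, SOX9 had a ratio of 2.39 (1.94 to 2.95) for VCaP-CR to VCaP, on 454 and 116 counts. The ratio was 0.733 (0.602 to 0.894) for LAPC4 and 0.600 (0.333 to 1.07) for LnCaP. The edgeR log2 change over the pairs was 0.07 (SE 0.47, adjusted p = 0.98), and it was -0.55 without the VCaP pair. A long noncoding RNA listed as AC005152.2 spans the whole SOX9 locus, with from 16 to 53 counts per library.

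SOX2 (ENSG00000181449, chromosome 3, 182912408 to 182914915) had 17 and 15 counts for the LnCaP lines, 12 and 14 for the VCaP lines, and 10 and 103 for the LAPC4 lines. The levels in the same order were 0.732, 0.506, 0.489, 0.348, 0.309 and 1.65 scaled FPKM. LAPC4-CR was apart from the other libraries, whose neighbours in the order all had overlapping intervals. The LAPC4-CR to LAPC4 ratio was 5.35 (2.79 to 11.5), the largest ratio of a factor in a pair, and the intervals of the other pairs held 1 (0.321 to 1.47 and 0.305 to 1.68). With a mean of 0.672 scaled FPKM SOX2 did not enter the main test. With no filter on low values its edgeR log2 change over the pairs was 0.72 (SE 0.50, adjusted p = 0.88).

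SOX2 lies inside a long noncoding RNA gene listed as RP11-4B14.2. That gene had 19 and 107 counts for the LnCaP lines, 26 and 23 for the VCaP lines, and 31 and 53 for the LAPC4 lines. Its highest count was therefore in LnCaP-abl, where SOX2 had 15, and not in LAPC4-CR. The ratio of SOX9 to SOX2 per length was 1.12 and 0.977 for the LnCaP lines, 6.16 and 20.7 for the VCaP lines, and 11.3 and 1.55 for the LAPC4 lines. Of the resistant lines, LAPC4-CR was the one with SOX9 lower and SOX2 higher than its sensitive line beyond counting error.

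Of 18 further SOX genes, 5 entered the test over pairs and 0 passed it, with median log2 changes of -0.49, 0.13 and -0.80 for the LnCaP, VCaP and LAPC4 pairs. SOX4, common in epithelial tumours, was the most abundant of the 4 named here, at 15.04 and 7.86 scaled FPKM for the LnCaP lines, 24.6 and 27.1 for the VCaP lines, and 15.7 and 10.9 for the LAPC4 lines. SOX11, known from neural development, was at 13.6 in LAPC4 and 4.84 in LAPC4-CR and at most 2.502 elsewhere, and it differed between lineages (edgeR adjusted p = 0.0077). It was lower in the resistant library of 3 of 3 pairs, as were 16.7% of all tested genes (edgeR adjusted p = 0.59). SOX8 was at 2.20 in LnCaP and 0.2496 in LnCaP-abl, and SOX13 at 3.30 in LAPC4 and 1.15 in LAPC4-CR.

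TP63 (ENSG00000073282, chromosome 3, 190831899 to 191097762), the basal master regulator, had from 16 to 40 counts per library. Its level was 0.377 and 0.442 scaled FPKM for the LnCaP lines, 0.219 and 0.284 for the VCaP lines, and 0.218 and 0.216 for the LAPC4 lines. All 5 neighbours in the order overlapped and the interval of the ratio held 1 in each pair, the widest being 0.696 to 2.51 in the VCaP pair. Differences of TP63 inside these intervals could not be seen at this depth.

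Of the 17 listed p63 and basal epithelial genes, 10 were tested. The keratins KRT5, KRT14 and KRT15 were not among them and reached 2.37 scaled FPKM at most, for KRT15 in LAPC4-CR. The 10 that were had median log2 changes of 0.17, 0.58 and 0.33 for the LnCaP, VCaP and LAPC4 pairs, and 9 of 10 were higher in VCaP-CR than in VCaP, as were 7876 of all 16231 tested genes. Some of the 10, such as NGFR, reached the mean needed for testing through the lines of 1 lineage, so counts and medians over them are a description only. ITGA6, the laminin receptor chain, was at 7.26 in LAPC4 and 25.01 in LAPC4-CR, and DST, a hemidesmosome linker, at 0.596 in LnCaP and 4.61 in LnCaP-abl. CDH3, the placental cadherin, was at 0.796 in VCaP and 5.61 in VCaP-CR, and NGFR, a neurotrophin receptor, at 23.4 in LAPC4 and 4.21 in LAPC4-CR. EdgeR called 0 of the 10 over the pairs; 3 were higher and 1 lower at an unadjusted p under 0.05, where 4.49% and 3.38% of all tested genes were.

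MYC (ENSG00000136997, chromosome 8, 128816862 to 128822856) was lower in the resistant library of 3 of 3 pairs. Its level was 49.7 and 24.98 scaled FPKM for the LnCaP lines, 78.6 and 63.2 for the VCaP lines, and 35.1 and 12.9 for the LAPC4 lines. The 6 libraries were apart from each other by more than counting error, and both VCaP libraries were the highest. VCaP-CR, though below its own parent, was above LnCaP and LAPC4.

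The resistant to sensitive ratio of MYC was 0.503 (0.462 to 0.548) for LnCaP, 0.804 (0.761 to 0.849) for VCaP and 0.369 (0.339 to 0.401) for LAPC4. The mean log2 change was -0.88 ± 0.54 (SD, n = 3 pairs). The edgeR log2 change was -0.90 (SE 0.30). Its edgeR adjusted p was 0.59, so the difference did not pass, although the unadjusted p was 0.020. Of the tested genes, 16.7% were lower in all 3 pairs, so the shared direction is common in these data. MYC made up from 90.8% to 98.3% of the summed level of MYC, MYCN and MYCL1.

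**Figure D2:**
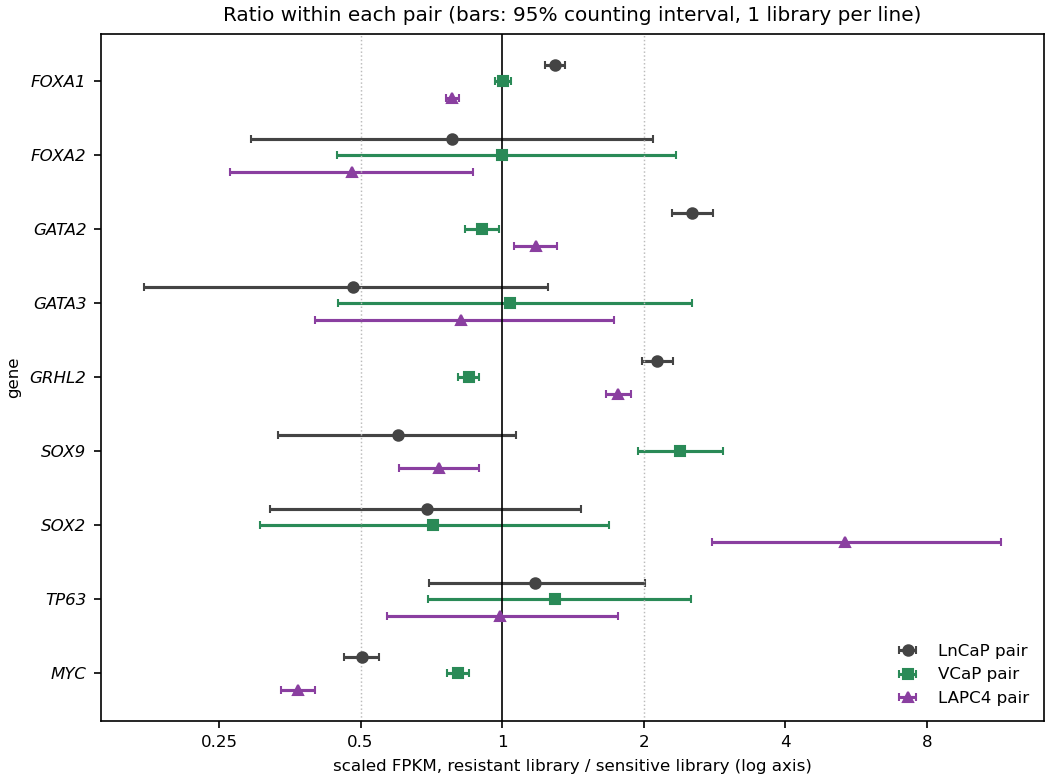
Ratio of scaled FPKM in the resistant library to that in the sensitive library (log axis) for each of the 9 factors and 3 pairs, with 95% counting intervals. The intervals of MYC lie below 1 in each pair, those of GATA2 and GRHL2 lie above 1 in the LnCaP and LAPC4 pairs and below 1 in the VCaP pair, and the SOX2 interval of the LAPC4 pair starts at 2.79.

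Over the 3 pairs together, edgeR called 0 of the 5 tested factors at an adjusted p under 5%, and 0% of the 16231 tested genes in either direction. At an unadjusted p under 0.05 it found 728 genes higher (4.49%) and 548 lower (3.38%); of the 5 factors MYC alone was among them. DESeq2 called 82 genes higher and 55 lower and limma 0 and 0, and neither called a factor. The smallest adjusted p of a factor under DESeq2 was that of MYC, 0.28.

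Counted within pairs at 2-fold or more on the log2(scaled FPKM + 1) scale, 2 of the 9 factors were higher in LnCaP-abl (GATA2 and GRHL2) and 0 lower, where 6.23% and 6.19% of tested genes were. In VCaP-CR 1 was higher (SOX9) and 0 lower, where 2.37% and 2.03% were. In LAPC4-CR 1 was higher (SOX2) and 1 lower (MYC), where 5.22% and 5.28% were. The shares are over tested genes only, which leave out FOXA2, GATA3, SOX2 and TP63. The MYC change of the LnCaP pair, -0.96, was just short of that size. These counts rest on few genes and single libraries, and scaling on protein-coding genes, which shifts the median change of the LnCaP pair by -0.11, makes GRHL2 fall short of 2-fold and MYC pass it there, and makes SOX2 fall short in the LAPC4 pair.

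The MYC network, here the MYC paralogs, MAX with its other partners, and the related MLX group, was described next. Of its 12 genes 10 entered the test over pairs and 0 passed. MGA, a MAX partner that opposes MYC, was higher in 3 of 3 pairs, as were 15.1% of all tested genes, with log2 changes of 0.57, 0.72 and 1.07, and reached 11.0 scaled FPKM in LAPC4-CR from 4.72 in LAPC4 (edgeR adjusted p = 0.59). MXD3, another antagonist, was at 4.64 in VCaP and 1.06 in VCaP-CR. MYCL1 was at 1.32 in LAPC4 and 0.349 in LAPC4-CR, and MLXIP, a glucose-sensing relative, at 1.30 and 2.67. The median log2 changes of the 10 were 0.17, -0.07 and -0.05.

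MYC target genes, here mostly of ribosome biogenesis, translation, metabolism and growth, did not track MYC in the same way in each pair. Of the 25 tested of 26 listed, 19 were lower in LnCaP-abl and 19 were lower in VCaP-CR, while 15 were higher in LAPC4-CR, where the MYC ratio was the lowest. Over all 16231 tested genes, 8254 were lower in LnCaP-abl, 8337 in VCaP-CR, and 7834 were higher in LAPC4-CR, so the LAPC4 count was not far from that of all genes. The median log2 change was -0.53, -0.16 and 0.27 for the LnCaP, VCaP and LAPC4 pairs, beside -0.96, -0.31 and -1.37 for MYC. NCL, the nucleolar protein nucleolin, was at 4.58 scaled FPKM in LAPC4 and 20.7 in LAPC4-CR. DKC1, a pseudouridine synthase, was at 8.86 and 23.1, and SRM, spermidine synthase, at 13.8 and 33.5 in the same pair. IMPDH2, an enzyme of guanine nucleotide synthesis, was at 147 in LnCaP and 60.5 in LnCaP-abl. EdgeR called 0 of the 25 over the pairs, as it did 0% of all tested genes. Between lineages it called 0 of the 25, where 12.7% of all tested genes passed. Over the pairs 0 of the 25 were at an unadjusted p under 0.05, where 4.49% of all tested genes were higher and 3.38% lower. Which of these genes depend on MYC in these lines was not tested.

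**Figure D3:**
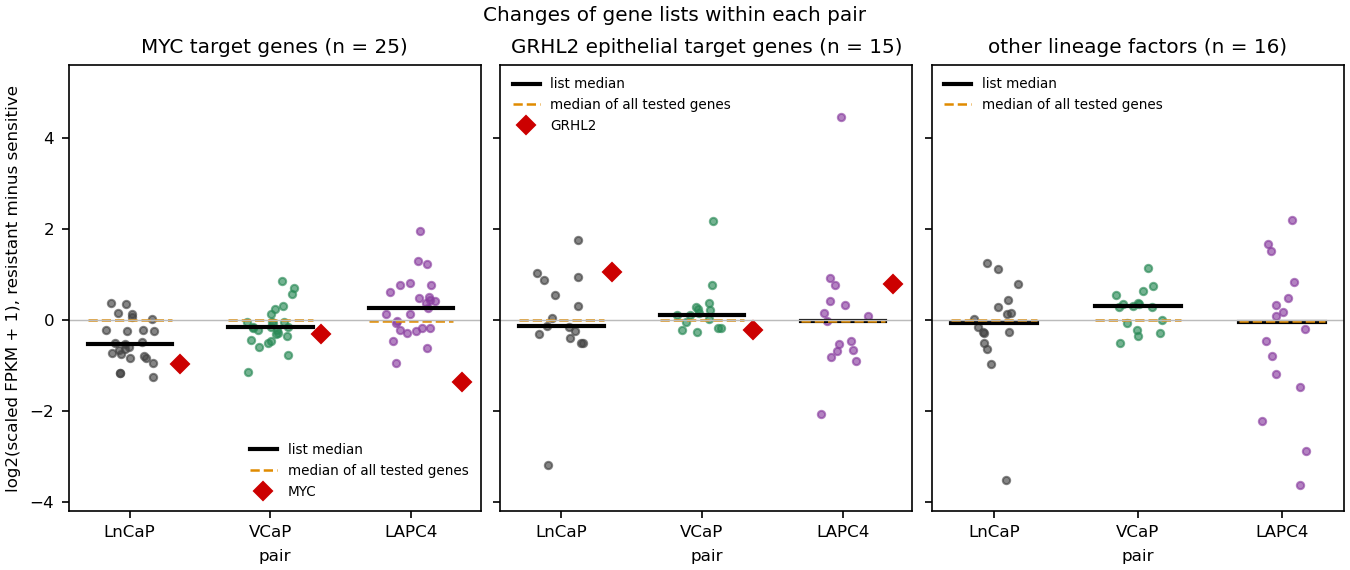
Log2 change (resistant minus sensitive, on log2(scaled FPKM + 1)) of each gene of 3 lists within each pair; black bars are list medians, dashed bars the median of all tested genes, and diamonds MYC or GRHL2. The MYC target median is below 0 in the LnCaP and VCaP pairs and at 0.27 in the LAPC4 pair, where MYC is at -1.37.

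Other lineage factors of prostate epithelium were set beside the 9. Of 17 listed, 16 entered the test over pairs and 0 passed. HOXB13, the posterior homeobox factor that binds with FOXA1, was at 58.9 and 65.8 scaled FPKM for the LnCaP lines, 43.6 and 35.5 for the VCaP lines, and 31.3 and 1.60 for the LAPC4 lines. In LAPC4-CR the level of HOXB13 was thus far below the other 5 libraries while FOXA1 was at 107. NFIB, a chromatin factor found at FOXA1 sites, was at 13.1 in LAPC4 and 0.911 in LAPC4-CR. The list medians were -0.07, 0.29 and -0.06 for the LnCaP, VCaP and LAPC4 pairs.

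Differences between the 3 lineages were tested with the sensitive and resistant library of a lineage as its 2 libraries and the state as a covariate. These compare the cell lines and not tumours. Of the 5 tested factors, SOX9 passed at 5% (edgeR adjusted p = 0.049), where 12.7% of the tested genes did. SOX9 was higher in the VCaP than in the LnCaP lineage by 2.96 on the log2 scale (SE 0.60, adjusted p = 0.042), with means of 5.10 and 0.659 scaled FPKM, a contrast that 5.98% of genes passed. LAPC4 lay above LnCaP by 2.22 (SE 0.58, adjusted p = 0.098), which did not pass; 3.11% of genes passed that contrast.

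MYC was just outside the threshold (edgeR adjusted p = 0.051). Its contrast of LAPC4 with VCaP passed, at -1.73 (SE 0.37, edgeR adjusted p = 0.032), with means of 24.0 and 70.9 scaled FPKM, as did 12.6% of genes. GATA2 was 1.11 lower in LAPC4 than in VCaP (SE 0.41, edgeR adjusted p = 0.12) and had an adjusted p of 0.17 over the 3 lineages, so neither passed. FOXA1 and GRHL2 had edgeR adjusted p of 0.28 and 0.32, with contrasts of at most 0.67 ± 0.31 (SE) and 0.73 ± 0.40. The SOX9 call was lost in limma (adjusted p = 0.065), with protein-coding genes alone (0.066), without LnCaP-abl (0.12) and without VCaP-CR (0.081). MYC passed in DESeq2 (0.0025) and without LnCaP, LnCaP-abl or LAPC4 (0.027, 0.042 and 0.032), and was at 0.32 without VCaP-CR; GATA2 passed without LnCaP (0.031).

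**Figure D4:**
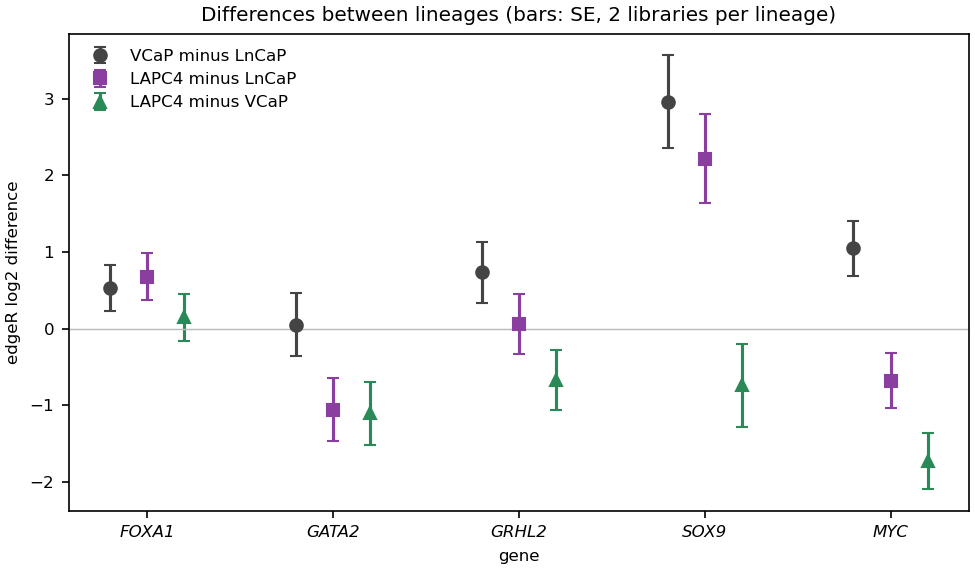
EdgeR log2 difference between lineages for the 5 tested factors, with standard errors and 2 libraries per lineage. SOX9 in VCaP minus LnCaP (2.96) and MYC in LAPC4 minus VCaP (-1.73) are the contrasts that passed at 5%.

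The protein-coding genes whose centred log2 profile over the 6 libraries was closest to that of a factor were picked from 11340 candidates by root mean square distance. For GRHL2 they were SGMS2, a sphingomyelin synthase (0.09), and MAP3K5, a stress kinase (0.11), against a spread of 0.49 of GRHL2 about its own mean. For GATA2 they were RASSF5 (0.11) and ATP6V1H, a proton pump subunit (0.12), against 0.60. For MYC they were SLC16A10, an aromatic amino acid transporter (0.15), and UBE2E1, a ubiquitin-conjugating enzyme (0.23), against 0.84. For SOX9 they were PVRL3, a nectin (0.23), and SRI, a calcium-binding protein (0.24), against 0.82. FOXA1, which hardly varied (0.31), was closest to LIN7B (0.09) and SLC25A39 (0.09). With 6 libraries and so many candidates, such closeness is a description and no more.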

How the data were processed

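Libraries were made from total RNA (RNeasy, SOLiD Total RNA-Seq kit), per the labels' protocols. HTSeq and hg18 are named in the submitters' processing notes. For the aligner, the annotation and the strand setting, the sources used here name none. Per the file headers, the deposited tables hold a count per gene and an FPKM value. The authors' FPKM was rebuilt within 1% as count over gene length and total count for 100% of values; LAPC4-CR has no length column, so lengths came from the other 5 tables.

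Rows of 13 small RNA classes (8763) were left out, rows sharing a symbol were summed (48 symbols), and FPKM was divided by median-ratio factors (0.847 to 1.11) over 11600 genes. Tested genes averaged 1 scaled FPKM or more (16231, of which 11341 protein-coding). Counts were tested with edgeR 4.0.16 (R 4.3.3; quasi-likelihood, TMM, parental line as a block, two-sided, Benjamini-Hochberg over all tested genes, threshold 5%), with DESeq2 1.42.0 and limma 3.58.1 as alternatives; the fits were tested on simulated data. The pairing comes from line names; deviations from group means correlated at 0.46, 0.73 and 0.59 within the LnCaP, VCaP and LAPC4 pairs. Changes within pairs use log2(scaled FPKM + 1), which understates those of low genes, and exact 95% intervals of ratios and Poisson intervals of counts, which cover counting error only.

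Gene lists hold paralogs, targets and markers. Of each, at most 4 genes are named by rule, for the largest change in a pair with at least 20 counts in a library. Further genes are named outside that rule. Among them are CDH1, VIM, INSM1, CHGB, SYP, NCAM1, FOXA3 and the keratins KRT5, KRT8, KRT14, KRT15, KRT18 and KRT19. For each tested factor, the 2 nearest profiles are named. Factors and lists were chosen with earlier results of these data known. No count was adjusted over a list alone. Some genes that the rule picks are not reported here.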

Additional observations from a re-analysis of the deposited data

Results flagged for a closer look

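The following factors were higher in the resistant library of a pair and lower in that of another, with counting intervals that left out a ratio of 1 in both. The difference between pairs was not tested, for want of a second library of any line. On the log2(scaled FPKM + 1) scale, the FOXA1 change of the LnCaP pair minus that of the LAPC4 pair was 0.71. For GATA2 the LnCaP change minus the VCaP change was 1.41, and the VCaP change minus the LAPC4 change was -0.35. For GRHL2 these differences were 1.28 and -1.02. For SOX9 the VCaP change minus the LAPC4 change was 1.36.

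GATA2 and GRHL2 shared a pattern, higher in LnCaP-abl and LAPC4-CR and lower in VCaP-CR than in the line of the same name. For GATA2 the fall in the VCaP pair was small and depended on the scaling. Its log2 change there was -0.14 on scaled FPKM and -0.06 on FPKM as deposited, and counting intervals were computed on scaled values alone. VCaP was kept in DMEM and VCaP-CR in RPMI, while the base medium was RPMI in both lines of the other pairs; the part of the base medium in these results was not tested.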

How the results depend on the processing

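Over the pairs, 11 of 11 alternatives called 0 of the tested factors, and 55 of 59 values of single factors kept their direction. The exceptions were FOXA1 (-0.032 with no replicate block, -0.035 with protein-coding genes alone, and from -0.16 to 0.20 with a pair left out, lowest without the LnCaP pair) and SOX9 (from -0.55 without the VCaP pair to 0.42 without the LnCaP pair). With no replicate block edgeR called 0 genes in either direction, and the pairing changed no call of a factor. Genes called over the pairs numbered 82 higher and 55 lower in DESeq2 and 95 and 58 with no filter, and from 0 to 13 higher and from 1 to 20 lower with a pair left out. Genes called between lineages numbered 2065, against 3973 in DESeq2, 4900 with no filter, 1294 with protein-coding genes alone and from 979 to 3589 with a library left out. The number of factors called between lineages was 1, against 2 with DESeq2 size factors, in DESeq2, with no filter and with filterByExpr, 0 in limma and with protein-coding genes alone, and from 0 to 3 with a library left out.

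Factors at least 2-fold higher in the LnCaP, VCaP and LAPC4 pairs numbered 1, 0 and 0 with a pseudocount of 5. With scaling on protein-coding genes, 1 was higher and 1 lower in the LnCaP pair and 0 higher in the LAPC4 pair. Filtering with filterByExpr and keeping the small RNA classes were added after the data were seen. FOXA2, GATA3, SOX2 and TP63, with at most 103 counts in a library, are limited by depth.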

Other observations

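Markers of neighbouring cell states were read beside the factors. Of 13 neuroendocrine genes, 6 were tested over the pairs and 0 passed in edgeR. CHGA, CHGB, SYP and SCG3 reached the mean needed for testing through the VCaP lines, so no median or count between lineages is given. CHGA, a granule protein, was at 2.37 and 21.6 scaled FPKM for VCaP and VCaP-CR, SCG3 at 4.69 and 16.0, and SCG2 at 0.414 and 3.55, while FOXA2, the forkhead factor known from such tumours, stayed at 0.432 and 0.431. ENO2 was at 3.63 in LnCaP and 12.0 in LnCaP-abl, but at 3.46 in VCaP and 2.81 in VCaP-CR. INSM1, on the same list, was also lower in VCaP-CR, at 1.35 against 3.51 in VCaP. The neuroendocrine genes thus did not move in 1 direction in the VCaP pair.

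Of 11 luminal genes 10 were tested over the pairs and 0 passed. At an unadjusted edgeR p under 0.05, 3 of the 10 were lower, where 3.38% of all tested genes were. The medians were -0.29, -0.56 and -1.42 for the LnCaP, VCaP and LAPC4 pairs, beside -0.01, -0.01 and -0.02 over all tested genes. In the LAPC4 pair the keratins KRT8, KRT18 and KRT19 were higher, with log2 changes of 0.54, 0.58 and 2.03. The other tested luminal genes were lower in that pair. KLK2 was at 59.1 in LnCaP and 0.648 in LnCaP-abl, TMPRSS2 at 56.9 in LAPC4 and 0.638 in LAPC4-CR, and ACPP, prostatic acid phosphatase, at 3.99 in LnCaP and 62.96 in LnCaP-abl. Of 13 mesenchymal and stromal genes 3 were tested over the pairs and 0 passed; TWIST1 and FN1 reached the mean needed through lines in which they were high. TWIST1 was at 11.5 in LnCaP and 0.499 in LnCaP-abl, and FN1 at 5.22 in LAPC4 and 0.346 in LAPC4-CR. VIM, named after its values were seen, was at most 1.10 in the 6 libraries. SNAI2 was at 1.42 in LnCaP and 0.222 in LnCaP-abl, and ACTA2 at 0.428 and 1.42. Of the 6 immune and endothelial genes found, 0 reached the mean needed for testing.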
